A study of Mus musculus with 3 samples.

Results

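The cells described here were C1q-positive macrophages sorted from the infarcted neonatal mouse heart, compared between animals given SB225002 and animals given its vehicle. SB225002 is a small-molecule antagonist of CXCR2, the chemokine receptor through which CXCL1, CXCL2 and related ligands act. A kept cell had 500 to 30000 unique molecular identifiers (UMIs), 500 to 5000 detected genes and a mitochondrial share under 10%. The members were chosen by their measured C1q level: a kept cell was called C1q-positive when C1qa, C1qb and C1qc together made up at least 0.3% of its UMIs. By this rule 5774 of the 8198 kept cells of both infarct libraries were C1q-positive, 2513 of 3454 in P10-MI_vehicle and 3261 of 4744 in P10-MI_SB225002. The whole series held 13684 barcodes, of which 10550 were kept.

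The mice were C57BL/6 pups. Myocardial infarction (MI) was made on postnatal day 10 by tying off the left anterior descending (LAD) coronary artery, and hearts were taken 3 days later, on day 13. P10-MI_vehicle pups received vehicle and P10-MI_SB225002 pups received SB225002, by daily intraperitoneal injection over those days. Another library, P10-sham_vehicle, came from vehicle-treated pups with sham surgery and served as the level without infarct (2115 C1q-positive cells of 2352 kept). Live CD45+ F4/80+ cells were sorted from infarct and border zone tissue pooled over several hearts. Pups of both sexes were used, and the sex of single pups was not determined. Each condition was 1 library, so no difference between conditions could be tested. Levels are given as CPM, the UMIs of a gene summed over the C1q-positive cells of a library per 1000000 UMIs of those cells. Intervals are exact 95% intervals of counting error only and say nothing about the spread between mice.

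C1q is the recognition molecule that starts the classical complement pathway, and tissue macrophages are its main source. In the neonatal heart, resident macrophages marked by Lyve1, Folr2, Cd163 and Mrc1 are seeded before birth and clear debris. After infarction, monocytes enter the tissue and become macrophages, and part of them acquire a lipid-associated state with Spp1, Gpnmb, Fabp5 and Trem2. CXCR2 is best known for drawing neutrophils out of the bone marrow and into injured tissue.

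The libraries differed in depth and composition before any gene was compared. Summed UMIs of the C1q-positive cells were 19889444 in P10-sham_vehicle, 18775800 in P10-MI_vehicle and 22426595 in P10-MI_SB225002, and a cell held a median of 8802, 6548 and 6015 UMIs. Mitochondrial transcripts took 4.79%, 4.31% and 3.39% of these UMIs, and the nuclear RNA Malat1 stood at 1495 CPM, 1505 CPM and 937 CPM. Xist, the RNA of the inactive X chromosome, was at 370.3, 220.3 and 339 CPM, and the Y-linked Ddx3y at 38.5, 43.4 and 30.3 CPM. Between the infarct libraries the X-linked RNA was thus higher and the Y-linked gene lower with SB225002. All 3 Y-linked genes that reached the level minimum given below were lower in P10-MI_SB225002 (median log2 ratio -0.52, 2 of them past -0.5). Of the C1q-positive barcodes, 738 occurred in both infarct libraries (29.4% of the vehicle and 22.6% of the SB225002 barcodes). The part of these differences in the results below was not tested. Among kept cells with a shared barcode, the SB225002 cell was C1q-positive for 73.7% of 1002 whose vehicle cell was C1q-positive. It was C1q-positive for 76.8% of 354 whose vehicle cell was not. No other cell class was compared, and most kept cells of both libraries were C1q-positive.

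Transcripts of marker genes of other cell types were present and moved between the libraries. The neutrophil list leaves out S100a8 and S100a9, which neutrophils also express and whose far higher levels are given with the acute-phase genes. The summed level of 9 neutrophil markers in the C1q-positive cells was 553 CPM in P10-sham_vehicle, 956 CPM in P10-MI_vehicle and 1258 CPM in P10-MI_SB225002. Most of the difference between the infarct libraries came from Retnlg (162 and 428 CPM), and the abundant Ngp (204 and 180.5 CPM) and Ltf (93.6 and 83.8 CPM) were lower. The other markers of this list were higher, among them Camp (130 and 152 CPM) and Lcn2 (268 and 290 CPM). The 7 endothelial markers summed to 189, 125 and 339 CPM. Fabp4, which is also a lipid-associated macrophage gene, alone made up 155, 98.9 and 268 CPM of these. The remaining endothelial markers were each higher with SB225002 than with vehicle as well. The 7 fibroblast markers summed to 96.7, 136 and 98.4 CPM, the 6 B cell markers to 156, 208 and 161 CPM, and the 7 T/NK cell markers to 29.1, 49.0 and 9.59 CPM. No marker of these 5 lists was at 0 in any of the 3 libraries. C1q-positive cells with neutrophil markers at 0.5% or more of their UMIs numbered 63 among vehicle and 138 among SB225002 cells, and those with endothelial markers 9 and 54. Their part in the results was not tested. Repeats without such cells are given beside the genes they touch.

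The share of kept cells that were C1q-positive was 89.9% in P10-sham_vehicle (95% interval 88.6 to 91.1), 72.8% in P10-MI_vehicle (71.2 to 74.2) and 68.7% in P10-MI_SB225002 (67.4 to 70.1). C1q itself chose the cells, so its level is a description. C1qa stood at 3158 CPM in the vehicle and 3259 CPM in the SB225002 cells, C1qb at 3374 and 3791 CPM, and C1qc at 2790.2 and 2602 CPM. Just inside the bound, 53 vehicle and 68 SB225002 cells held a C1q share from 0.3% to 0.35%. Just outside it, 44 and 79 cells held 0.25% to 0.3%, while 455 and 576 kept cells had no C1q UMI. All 7 macrophage markers were detected in the C1q-positive cells of each library. Adgre1, which encodes F4/80, was at 508, 517 and 428 CPM, and the CSF-1 receptor gene Csf1r at 891, 884 and 743 CPM, in the order sham, vehicle, SB225002. Both were lower in the other kept cells, where Adgre1 was at 113 CPM in the vehicle and 153 CPM in the SB225002 library. The macrophage markers did not share a direction in the C1q-positive cells. Mertk, Mrc1 and Ptprc were also lower with SB225002 than with vehicle. Cd68 (400, 427 and 594 CPM) and Fcgr1 (158, 162 and 216 CPM) were higher.

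Cxcr2, the gene of the receptor that SB225002 blocks, was sparse in the C1q-positive cells. It gave 171 UMIs in vehicle cells (9.11 CPM) and 391 in SB225002 cells (17.4 CPM), and stood at 67.9 and 74.5 CPM in the other kept cells. The neutrophil receptor gene Csf3r was at 29.6 and 42.6 CPM. The granule genes Ngp and Ltf were slightly lower with SB225002, and Camp, Lcn2 and Mmp8 slightly higher. The part of neutrophil RNA in the Cxcr2 level was not tested. Cxcr1 gave 0 UMIs in the C1q-positive cells of all 3 libraries, which allows up to 3 UMIs in each.

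Across the 6640 genes with at least 20 CPM in either infarct library, most differed little, and under CPM scaling the genes that were higher and lower came in near equal numbers. A gene was counted as higher or lower in P10-MI_SB225002 when the log2 ratio of its CPM over P10-MI_vehicle was at least 0.5 or at most -0.5. By this rule 304 genes (4.58%) were higher and 345 genes (5.2%) were lower, and the median log2 ratio was -0.03. These shares are the background for each gene list below. The split depended on the scaling: TMM normalisation gave 448 higher and 245 lower genes, and median-of-ratios scaling 541 and 222. Without the barcodes shared between the libraries 377 genes were higher and 398 lower, and without cells carrying markers of another cell type 307 and 386.

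**Figure D1:**
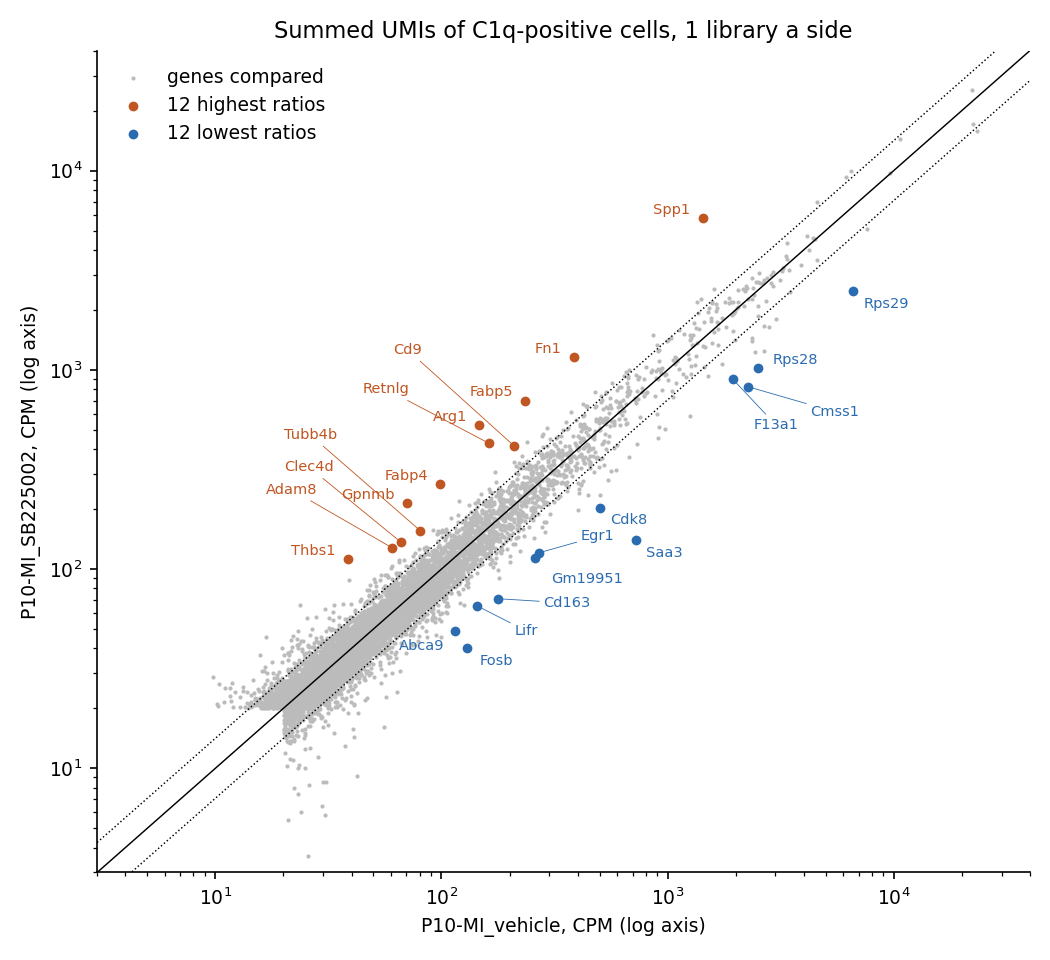
Summed level of each of the 6640 genes in C1q-positive cells of P10-MI_vehicle (x axis, CPM, log scale) and P10-MI_SB225002 (y axis, CPM, log scale); the solid line marks equal levels and the dotted lines a log2 ratio of 0.5 either way. The 12 genes with the highest ratios (orange, led by Spp1) and the 12 with the lowest (blue, led by Saa3) were drawn from the 1729 genes that reached 100 CPM in P10-MI_vehicle or P10-MI_SB225002.

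The log2 ratio also varied with transcript length. The 73 genes whose longest annotated transcript was under 500 bases had a median log2 ratio of -0.25, and 20 of them were lower. The median was 0.15 for the 363 genes of 500 to 1000 bases and 0.22 for the 1121 genes of 1000 to 2000 bases. It was 0.03 for 2454 genes of 2000 to 4000 bases and -0.15 for 2174 genes of 4000 to 8000 bases. The 450 genes of 8000 bases or more had a median of -0.24. The other kept cells showed medians of -0.35, 0.15, 0.24, 0.12, -0.04 and -0.10 in the same classes. Genes under 500 bases and those of 4000 bases or more thus had negative medians in both groups of cells. The part of this pattern in any single gene was not tested. List medians after subtracting the median of each length class are given in the closing section.

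The genes with the highest ratios were led by Spp1, which encodes the secreted matrix protein osteopontin. Spp1 was at 107 CPM in P10-sham_vehicle, 1429.6 CPM in P10-MI_vehicle and 5792 CPM in P10-MI_SB225002, a log2 ratio between the infarct libraries of 2.02 (95% interval 2.0 to 2.04). Spp1 was thus already higher after MI and higher again with SB225002. Arg1, which encodes the arginine-degrading enzyme of repair macrophages, was at 2.41, 147 and 529.5 CPM (log2 ratio 1.85, 95% interval 1.79 to 1.91). Its sham level was far below that of both infarct libraries. Gpnmb, a transmembrane glycoprotein of lipid-laden macrophages, was at 8.55, 70.6 and 214 CPM (1.6, 95% interval 1.51 to 1.69), and Fabp5, an intracellular fatty acid carrier, at 74.4, 235 and 701 CPM (1.58, 95% interval 1.53 to 1.62). Several ratios depended on the C1q bound: with a C1q share of at least 1% the log2 ratio was 1.17 for Spp1, 0.33 for Gpnmb and 0.36 for Fabp5. Cd9, a tetraspanin, was at 176, 209 and 417 CPM (1.0, 95% interval 0.94 to 1.05).

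Matrix and adhesion genes stood next to them. Fn1, the gene of fibronectin, was at 67.6 CPM in the sham, 387 CPM in the vehicle and 1159 CPM in the SB225002 library (1.58, 95% interval 1.55 to 1.62). Thbs1, the gene of the matricellular protein thrombospondin 1, was at 7.04, 38.7 and 112 CPM (1.54, 95% interval 1.42 to 1.66). With a C1q share of at least 1% the log2 ratio of Thbs1 was 2.36. Both were many-fold above sham in the infarct libraries and higher still with SB225002. Adam8, a membrane metalloproteinase, was at 33.2, 60.5 and 128 CPM (1.08, 95% interval 0.98 to 1.18), and Clec4d, a C-type lectin receptor, at 28.6, 66.0 and 137 CPM (1.05, 95% interval 0.95 to 1.15). Without the cells whose Spp1 share was 0.1% or more, the log2 ratio of Clec4d was 0.36 and that of Cd9 0.43. Tubb4b, a beta-tubulin gene, differed from the genes above in that its vehicle level was below sham (101, 80.7 and 156 CPM, log2 ratio 0.95).

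The remaining pair of the 12 highest genes belonged to the markers of other cell types. Fabp4, a fatty acid carrier on both the endothelial marker list and the lipid-associated list, was at 155, 98.9 and 268 CPM (1.44, 95% interval 1.36 to 1.51). Without cells carrying markers of another cell type its log2 ratio was 0.58. Retnlg, a resistin-like gene on the neutrophil list, was at 54.0, 162 and 428 CPM (1.40, 95% interval 1.34 to 1.46), 1.19 without such cells and 4.01 with a C1q share of at least 1%. The granule protein genes Ngp and Ltf on the same neutrophil list differed by -0.17 and -0.16. The other members of that list were higher: Mmp8 (0.03), Lcn2 (0.11), Camp (0.23), Csf3r (0.53), Ly6g (0.84) and Cxcr2 (0.94). Fabp4 and Retnlg are themselves among the markers that picked out the cells left out here. Leaving those cells out removes cells rich in these genes, so the repeat cannot show what part came from other cell types.

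**Figure D2:**
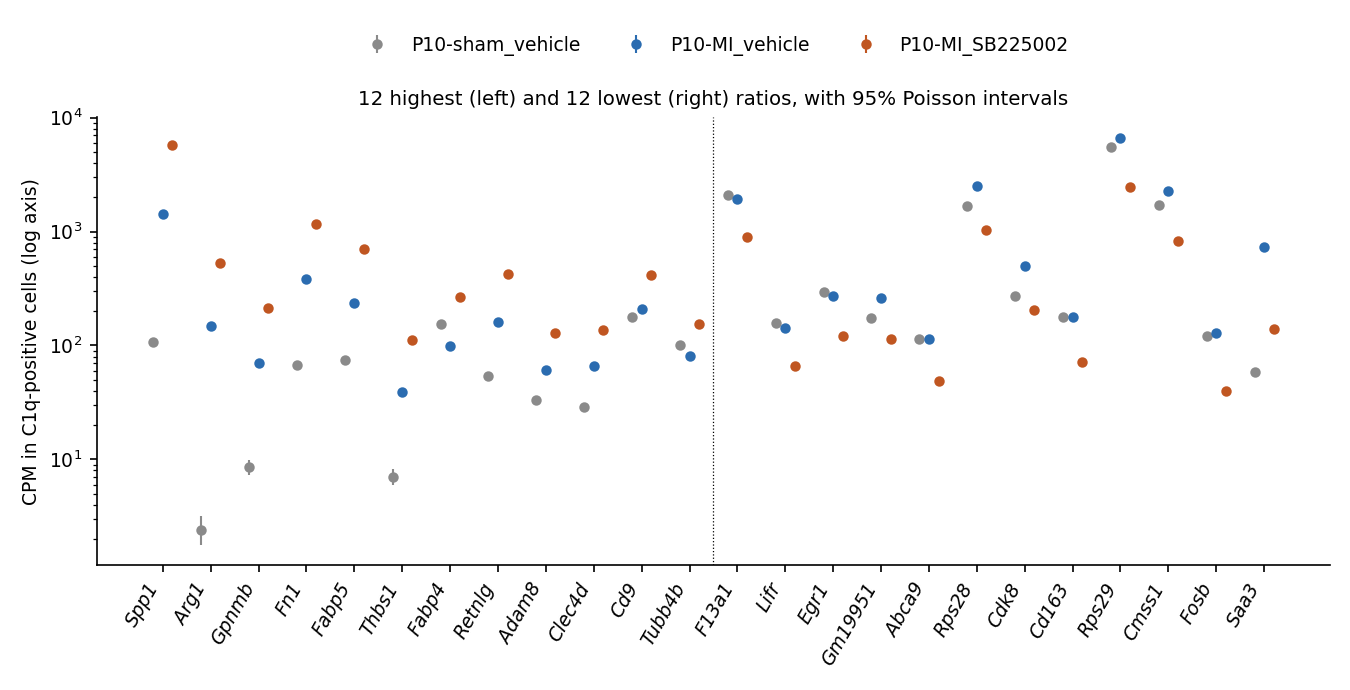
Level of the 12 genes with the highest and the 12 with the lowest log2 ratios in C1q-positive cells of the 3 libraries (y axis, CPM, log scale); points are single libraries and bars, mostly smaller than the points, are exact 95% Poisson intervals. Spp1, Arg1, Gpnmb, Fn1, Fabp5 and Thbs1 step up from sham to vehicle to SB225002, while F13a1, Lifr, Cd163, Abca9, Fosb and Egr1 lie close together in sham and vehicle and lower in SB225002.

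The lipid-associated macrophage list held 19 genes, of which 18 reached 20 CPM. Of these 8 were higher and 0 lower, with a median log2 ratio of 0.41, against 4.58% higher, 5.2% lower and -0.03 over all genes compared. Its summed level was 16770.1 CPM in sham, 21456 CPM in vehicle and 29315 CPM in SB225002 cells. Beside the genes given above, the higher members were Syngr1 (38.9 and 87.8 CPM, 1.18), the galectin gene Lgals3 (860.3 and 1501 CPM, 0.80) and the lipid-sensing receptor gene Trem2 (356 and 548 CPM, 0.62). The list did not move as a block. Apoe, the lipoprotein gene, was at 9685 and 9733 CPM (0.01), the lipase gene Lpl at -0.11, and Plin2, which coats lipid droplets, at 0.25. The rise was not particular to C1q-positive cells: in the other kept cells 15 of 18 members were higher and 0 lower, with a median of 0.79. Of all genes compared there, 8.86% were higher. A member that reached 20 CPM through 1 library alone had to differ, here and in the lists below.

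Few lysosomal genes differed, and of those past the bound most were cathepsins. Of 37 genes 34 reached the level minimum, 4 were higher and 0 lower, and the median was 0.13. Ctsd, the gene of the aspartic protease cathepsin D, was at 832 CPM in sham, 1401 CPM in vehicle and 2275 CPM in SB225002 cells (0.70). Ctsl, the gene of cathepsin L, was at 291, 479 and 776 CPM (0.69). The other higher members were Gla (0.53) and Ctss (1125 and 1594 CPM, 0.50), while the cathepsin genes Ctsz, Ctsh, Ctsa, Ctsb and Ctsc were at 0.46, 0.36, 0.17, 0.17 and -0.02. The proton pump and membrane genes Lamp1, Lamp2 and Atp6v0a1 were at 0.03, -0.11 and -0.36. In the other kept cells 17 of 34 lysosomal genes were higher and 0 lower, with a median of 0.50.

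Lysosomal genes share a promoter element bound by TFEB and related factors, whose core is the E-box CACGTG, which reads the same on both strands. Promoter windows of 250 bases before to 50 after the start site were taken from RefSeq (GRCm38.p6), and 8 of the 26 lysosomal genes with a window held the E-box (30.8%), against 7.15% of all 32851 windows and 10.7% of the windows of genes compared here. Here and below a gene counted if any of its windows held the letters, while the background shares are of windows, so the units differ. The windows of the cathepsin genes with the highest ratios both held it and are shown up to the start site, 5′ to 3′ on the strand of the gene, with the E-box in capitals. For Ctsd the sequence is chr7:142387828-142388077 (minus strand, GRCm38.p6), with E-boxes beginning 245 and 98 bases before the start site, and for Ctsl it is chr13:64370521-64370770 (minus strand), with the E-box beginning 236 bases before it.
Ctsd: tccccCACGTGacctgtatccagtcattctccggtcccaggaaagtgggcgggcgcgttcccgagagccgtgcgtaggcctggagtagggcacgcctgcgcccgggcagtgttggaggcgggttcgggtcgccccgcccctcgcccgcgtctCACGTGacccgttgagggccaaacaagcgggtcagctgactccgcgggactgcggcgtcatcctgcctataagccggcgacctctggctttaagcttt
Ctsl: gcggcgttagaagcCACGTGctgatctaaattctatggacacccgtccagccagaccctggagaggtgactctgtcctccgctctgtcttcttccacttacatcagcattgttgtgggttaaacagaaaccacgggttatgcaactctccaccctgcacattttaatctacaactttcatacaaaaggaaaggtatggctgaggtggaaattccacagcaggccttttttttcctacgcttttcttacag
Gla also held an E-box and Ctss did not, and Lamp1, Ctsa and Atp6v1a, with ratios of 0.03, 0.17 and 0.08, held one as well. A match of letters is a description of the window and not a bound site.

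Monocyte genes were mostly higher. Of 14 genes at the level minimum (of 18), 9 were higher, 0 lower and all 14 had a positive log2 ratio, with a median of 0.56. In the other kept cells 2 of 14 were higher and 2 lower, with a median of -0.02. Ly6c2, which marks classical monocytes, was at 16.3, 46.9 and 78.2 CPM (0.74), and the chemokine receptor gene Ccr2 at 40.0, 81.1 and 109.6 CPM (0.44), short of the bound. Ms4a4c (1.23), the coagulation factor X gene F10 (0.95), the proteoglycan gene Vcan (0.85), Ifitm3 (0.57), S100a4 (0.54) and Plac8 (0.52) were the further higher members besides Fn1 and Thbs1.

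Repair, growth factor and matrix genes were higher in part. Of 25 genes at the level minimum (of 35), 11 were higher and 2 lower, with a median of 0.35. The proteases Mmp12 (25.4 and 56.9 CPM, 1.16), Mmp14 (0.71) and Mmp9 (0.65), the protease inhibitor Timp1 (12.2 and 24 CPM, 0.98) and the matrix genes Sparc (0.80), Tgm2 (0.67) and Tgfbi (0.51) were higher, with Arg1, Fn1, Thbs1 and Adam8. The grouping by kind here was made after the values were seen. Of the growth factor genes, Igf1 was at 429.9 and 342 CPM (-0.33), Tgfb1 at 0.17, Pdgfb at 0.11 and Vegfb at -0.16, while Pdgfc (46.1 and 27.8 CPM, -0.73) and the stress cytokine gene Gdf15 (26.2 and 12.6 CPM, -1.06) were the lower members.

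**Figure D3:**
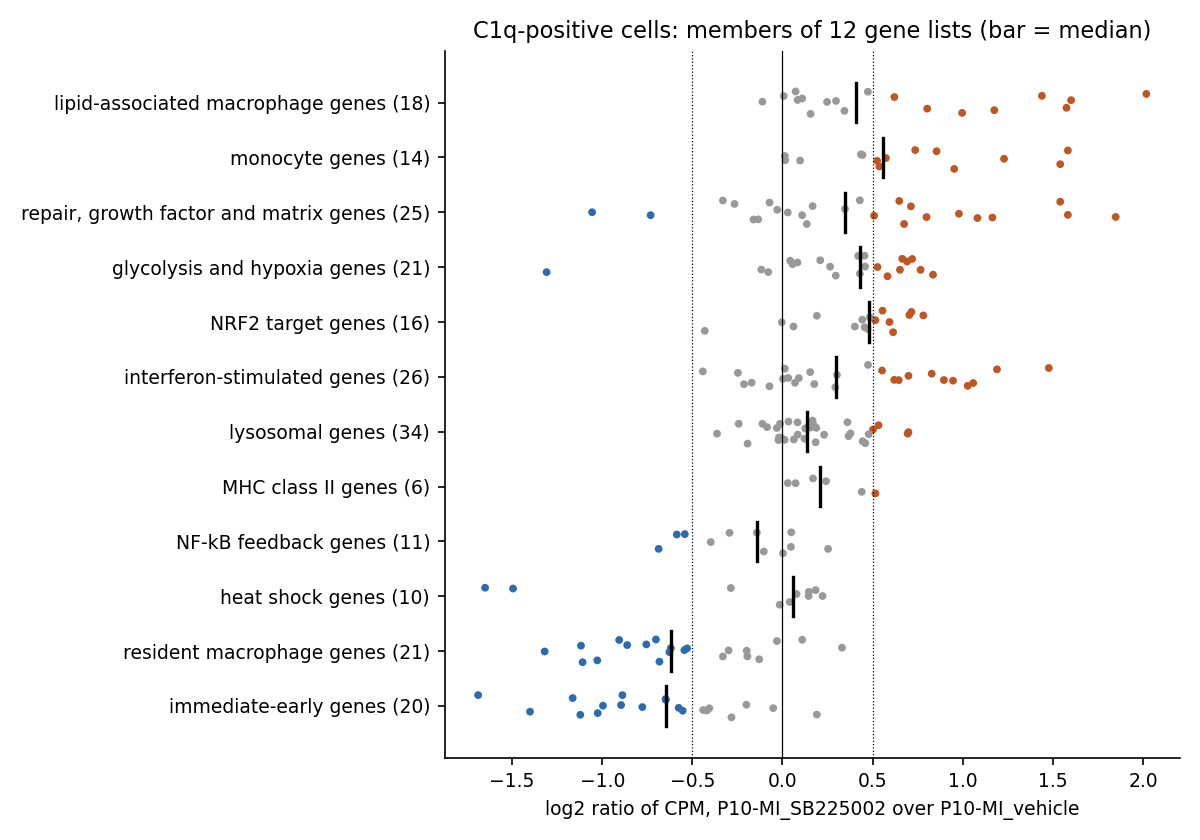
Log2 ratio of each list member at the level minimum in C1q-positive cells (x axis, P10-MI_SB225002 over P10-MI_vehicle; 12 of the lists, number of genes in brackets); black bars are list medians, dotted lines -0.5 and 0.5, and points past them are coloured. Monocyte, lipid-associated, NRF2 target and glycolysis genes lie mostly to the right, resident macrophage and immediate-early genes to the left with medians of -0.62 and -0.65, and lysosomal and heat shock genes around 0.

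Genes of resident cardiac macrophages were lower. Of 21 genes at the level minimum (of 26), 13 were lower, 0 higher and 19 had a negative log2 ratio, with a median of -0.62. The summed level of the list was 17825 CPM in sham, 16462 CPM in vehicle and 11191 CPM in SB225002 cells. F13a1, the gene of the coagulation factor XIII A chain, was at 2082, 1946 and 897 CPM (-1.12, 95% interval -1.14 to -1.09). Cd163, the haemoglobin scavenger receptor gene, was at 179, 177 and 71.0 CPM (-1.32, 95% interval -1.41 to -1.23). For both, sham and vehicle lay close together and SB225002 stood below both.

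The transcription factor gene Maf was at 1291, 1260.2 and 584 CPM (-1.11), and the hyaluronan receptor gene Lyve1 at 237, 223 and 123 CPM (-0.86). The mannose receptor gene Mrc1 was already lower after MI, at 2229, 1744 and 1072 CPM (-0.70). Mgl2 (-1.03), Cbr2 (-0.91), the selenium carrier gene Selenop (-0.76), Hpgd (-0.68), the fractalkine receptor gene Cx3cr1 (-0.63), Clec10a (-0.62), Gas6 (-0.54) and Stab1 (-0.53) were the further lower members. Not all resident markers followed. Folr2, the folate receptor gene, was at 269, 275 and 240.1 CPM (-0.19), Fcrls at -0.03 and the platelet factor gene Pf4 at -0.20. Abca9, a lipid transporter gene (114, 115 and 49.0 CPM, -1.23), and Lifr, the receptor gene for leukaemia inhibitory factor (156, 144 and 65.4 CPM, -1.13), were not on the list but had the same pattern of sham and vehicle close together and SB225002 below. In this measure fewer cells of one kind and less RNA per cell cannot be told apart, and the shares of cells are given further below.

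Immediate-early genes, which cells switch on within minutes of a stimulus or of handling, were lower with SB225002 as a group. Of 20 genes at the level minimum (of 25), 13 were lower, 0 higher and 19 negative, with a median of -0.65, and the summed level was 5738 CPM in sham, 5692 CPM in vehicle and 3480.2 CPM in SB225002 cells. Fosb, an AP-1 subunit gene, was at 122, 129 and 40.1 CPM (-1.69, 95% interval -1.80 to -1.58), and Egr1, a zinc finger factor gene, at 293, 271 and 121 CPM (-1.16, 95% interval -1.23 to -1.10). Of the other AP-1 genes, Fos was at 794, 903 and 453 CPM (-1.0) and Jun at 713, 678 and 366 CPM (-0.89). Cyr61 (-1.40), Klf4 (-1.12), Rhob (-1.03), the phosphatase gene Dusp1 (-0.90), Klf2 (-0.78), Zfp36 (-0.65), Atf3 (-0.65), Jund (-0.58) and Nr4a1 (-0.55) were also lower. Ier2 (-0.05) and Fosl2 (0.19) were not. The pattern was not particular to C1q-positive cells: in the other kept cells 11 of 20 were lower, with a median of -0.58.

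Lists that respond to related signals moved less. Of 11 NF-kB feedback genes 3 were lower and 0 higher (median -0.14), and the lower ones were the inhibitor gene Nfkbia (221, 244 and 162 CPM, -0.59), Nfkbiz (-0.54) and Tnfaip2 (-0.69). Of 10 heat shock genes 2 were lower and 0 higher (median 0.06). The lower ones were the inducible chaperone gene Hspa1a (35.4, 25.9 and 8.25 CPM, -1.65) and Hspb1 (22.4 and 7.94 CPM, -1.49), while the constitutive Hspa8 was at 0.08. The windows of the immediate-early genes were searched for CRE (TGACGTCA) and AP-1 (TGANTCA) letters on both strands, and 2 of the 17 genes with a window held the CRE (Dusp1 and Btg2) and 0 held the AP-1 letters. The shares over all windows were 1.79% and 7.81%, and over the windows of genes compared here 3.13% and 4.83%.

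Saa3, an acute-phase serum amyloid gene, had the lowest ratio. It was at 58.9 CPM in sham, 726 CPM in vehicle and 140.0 CPM in SB225002 cells (-2.37, 95% interval -2.43 to -2.32). Few cells carried it: 12.5% of vehicle and 8.13% of SB225002 cells had a Saa3 UMI, and the top 10% of cells held 99.5% and 100% of its UMIs. Thinned to 1000 UMIs a cell, the shares were 4.72% and 3.74%, against 0% of 57 and 2.56% of 39 B and T/NK cells, which should lack Saa3. With a C1q share of at least 1% its log2 ratio was -0.35. In the other kept cells Saa3 was at 2441 and 297 CPM (-3.04), but those with fibroblast markers held 846 and 1645 CPM (0.96). Of the 11 acute-phase and alarmin genes at the level minimum, Saa3 was the 1 lower member, and S100a11 (0.58) and S100a4 (0.54) were the 2 higher ones. The median of 0.21 was not stable, at -0.04 with a mitochondrial share under 5% and 1.90 with a C1q share of 1% or more. S100a8 and S100a9, which form calprotectin, were at 4603 and 3544 CPM (-0.38) and at 4137 and 4715 CPM (0.19). Neutrophils express both as well, and the part of RNA from other cells in these levels was not tested.

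The lowest ratios included genes that are not specific to macrophages and that were lower in other cell types too. Cmss1 was at 1710.5, 2268 and 823 CPM (-1.46, 95% interval -1.49 to -1.44), Cdk8, a kinase gene of the Mediator complex, at 273, 503 and 204 CPM (-1.30), and the unnamed gene Gm19951 at 174, 259 and 114 CPM (-1.19). The ribosomal protein genes Rps29 and Rps28 were at 5487, 6631 and 2483 CPM (-1.42) and at 1688, 2514 and 1025 CPM (-1.29). Among kept cells that were not C1q-positive, those with neutrophil markers showed log2 ratios of -0.66 for Cmss1, -1.08 for Cdk8 and -1.44 for Rps29, those with fibroblast markers -1.12, -1.06 and -1.19, and those with B cell markers -1.23, -1.49 and -1.52. Gm19951 was at -0.65, -0.85 and -0.55 in the same cells. The difference in these genes was thus not limited to macrophages, and its source was not tested.

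The ribosomal protein list as a whole did not move. Of 78 genes 9 were lower and 0 higher, with a median of 0.02. The lower members were Rps29, Rps28, Rpl38 (-1.12), Rps27 (-0.99), Rps21 (-0.78), Rpl39 (-0.75), Rpl37a (-0.70), Rpl37 (-0.68) and Rpl41 (-0.51), and the median longest transcript of these 9 was 665 bases against 1120 bases for the other 69. Of 75 respiratory chain genes 4 were higher and 2 lower (median 0.14). The lower ones, Atp5k (-1.10) and Ndufa3 (-0.74), had a median longest transcript of 673 bases. Of the lower ribosomal protein genes, Rps29 (461 bases), Rpl38 (457 bases) and Rps21 (481 bases) fall in the class under 500 bases. Its median log2 ratio over all genes was -0.25. Rps28 (1443 bases) falls in the class of 1000 to 2000 bases (median 0.22), and the others in that of 500 to 1000 bases (median 0.15). These lengths are of the longest annotated transcript, and the part of length in these genes was not tested.

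Interferon-stimulated genes were higher in part. Of 26 genes at the level minimum (of 37), 11 were higher and 0 lower, with a median of 0.30. Isg15, a ubiquitin-like modifier gene, was at 34.6 CPM in sham, 23.7 CPM in vehicle and 66.0 CPM in SB225002 cells (1.48, 95% interval 1.32 to 1.63). Ifit3, which binds foreign RNA with its partner Ifit1, was at 9.65, 11 and 25.1 CPM (1.19, 95% interval 0.96 to 1.43). It reached 20 CPM through the SB225002 library alone, so its entry in the list rests on the library where it was high. Isg15 in the vehicle cells was below sham, unlike Spp1 and Gpnmb. Irf7 (1.06), Zbp1 (1.03), Rsad2 (0.95), the chemokine gene Cxcl10 (0.90), Ifit1 (0.83), Oas1a (0.70), Rtp4 (0.64), Slfn4 (0.62) and Bst2 (0.55) were the further higher members. Ifi27l2a went the other way, at 3174, 2522 and 1856 CPM (-0.44), and as the most abundant member it made the summed level of the list lower, at 4220.0 CPM in vehicle and 3972 CPM in SB225002 cells, while the median was positive. In the other kept cells 12 of 26 interferon-stimulated genes were higher and 1 lower, with a median of 0.43.

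The binding element of the interferon-activated factor complex, the ISRE, was searched on both strands as TTTC, a spacer of 2 bases and TTTC again. Of the 19 interferon-stimulated genes with a window, 13 held it (68.4%), against 3.44% of all windows and 3.43% of the windows of genes compared here. Isg15 and Ifit3, the members with the highest ratios, both held it and are shown up to the start site on the strand of the gene, with the ISRE letters in capitals. For Isg15 the sequence is chr4:156200819-156201068 (minus strand, GRCm38.p6), with overlapping matches beginning 78, 72 and 66 bases before the start site, and for Ifit3 it is chr19:34583279-34583528 (plus strand), with matches beginning 156 and 122 bases before it.
Isg15: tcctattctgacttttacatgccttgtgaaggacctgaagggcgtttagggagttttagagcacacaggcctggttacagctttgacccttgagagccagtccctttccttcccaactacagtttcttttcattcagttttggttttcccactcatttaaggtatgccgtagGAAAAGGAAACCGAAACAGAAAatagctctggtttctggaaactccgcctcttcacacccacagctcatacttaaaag
Ifit3: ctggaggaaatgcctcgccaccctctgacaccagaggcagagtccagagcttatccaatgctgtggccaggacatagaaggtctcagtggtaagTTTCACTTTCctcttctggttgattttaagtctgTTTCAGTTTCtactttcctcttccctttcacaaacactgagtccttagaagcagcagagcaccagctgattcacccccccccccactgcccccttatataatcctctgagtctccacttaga
The ISRE was also in the windows of Stat2, Slfn5, Slfn8, Ifi211, Ifih1 and Ddx58, whose log2 ratios ran from -0.25 to 0.18. Of the 12 genes with the highest ratios, Spp1 and Clec4d held the ISRE letters, and of the 12 with the lowest, Saa3 did, among 7 and 10 genes with a window. The E-box was in 0 of these 7 windows and in the window of Cdk8.

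Several enzymes of glycolysis, the pathway from glucose to pyruvate and lactate, were higher. Of 21 glycolysis and hypoxia genes at the level minimum (of 25), 8 were higher and 1 lower, with a median of 0.43. The summed level was 3838 CPM in sham, 3962 CPM in vehicle and 6025 CPM in SB225002 cells. Gapdh was at 1449, 1356 and 2189.7 CPM (0.69), the phosphoglycerate kinase gene Pgk1 at 172 and 306 CPM (0.84), and the lactate dehydrogenase gene Ldha at 280.4 and 477 CPM (0.77). Pkm (0.72), Aldoa (0.66), Pgam1 (0.65), Tpi1 (0.58) and the glucose transporter gene Slc2a1 (0.53) were also higher. The lower member was Hk2, a hexokinase gene at the head of the pathway, at 43.4, 56.7 and 22.9 CPM (-1.31), and Hif1a was at 0.08. In the other kept cells 2 of 21 were higher (median 0.14).

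Oxidative stress genes driven by the factor NRF2 were higher in part. Of 16 genes at the level minimum, 7 were higher and 0 lower, with a median of 0.48. The ferritin genes Fth1 and Ftl1, which store iron, were at 6141 and 9267 CPM (0.59) and at 6475 and 9907 CPM (0.61). Prdx6 (0.78), Taldo1 (0.72), Gsr (0.70), Prdx1 (0.55) and Txnrd1 (0.52) were the further higher members, and the haem oxygenase gene Hmox1 was at 0.46. In the other kept cells 7 of 16 NRF2 target genes were higher and 0 lower, with a median of 0.41. Of 13 iron and heme genes 2 were higher and 3 lower (median 0.00). The ferritins were the higher ones, and the transferrin gene Trf (-0.65), the transferrin receptor gene Tfrc (-0.54) and Cd163 were the lower ones. Cholesterol genes differed little: of 4 sterol synthesis genes 0 were higher and 0 lower (median -0.03), and of 8 LXR target and cholesterol efflux genes 1 was lower, the phospholipid transfer gene Pltp (257 and 143 CPM, -0.84), with a median of 0.01.

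Secreted inflammatory genes showed no common direction. Of 8 cytokine genes 2 were higher and 0 lower (median -0.01). Il1b was at 5.03, 17 and 30.0 CPM (0.82) and its antagonist Il1rn at 25.9 and 40.4 CPM (0.64), while Tnf was at 36.7 and 32.5 CPM (-0.17). Of 10 CC chemokine genes 2 were higher and 2 lower (median 0.06). Ccl24 (0.57) and Ccl7 (0.53) were higher, and Ccl5 (9.55, 23.8 and 6.06 CPM, -1.97) and Ccl8 (-0.79) were lower. The monocyte attractant gene Ccl2 was at 903, 622 and 818 CPM (0.39).

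Genes of CXCR2 ligands were lower where they could be measured. Cxcl2 was at 269.9, 202 and 116 CPM (-0.80, 95% interval -0.87 to -0.73) and Ppbp at 39.3, 36.2 and 25 CPM (-0.53). The other ligand genes were under 20 CPM in both infarct libraries: Cxcl3 gave 233 UMIs in vehicle and 92 in SB225002 cells, Cxcl1 101 and 28, and Cxcl5 13 and 1. All 5 were thus lower in CPM with SB225002, in libraries of similar total depth. Cxcl2 in sham was above both infarct libraries.

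Surface and opsonin genes differed in few members. Of 19 engulfment and scavenger receptor genes 1 was higher, the bacterial scavenger receptor Marco (30.6 and 62.9 CPM, 1.04), and 5 were lower, Cd163, Mrc1, Pros1 (-0.55), Gas6 and Stab1 (median -0.01). Mertk, the receptor that Gas6 and Pros1 bridge to dying cells, was at 194 and 152 CPM (-0.35). Of 7 complement genes other than C1q 2 were lower and 0 higher (median -0.04), among them C4b at 59.5 and 38.5 CPM (-0.63). Of 6 Fc receptor genes Fcgr4 was higher (59.8 and 102 CPM, 0.77) and Fcgrt lower (-0.53), with a median of 0.06. Of 6 MHC class II genes 1 was higher, H2-DMb1 (0.52), and the median was 0.21, or -0.07 without dividing cells and 0.51 without shared barcodes. The peptide-presenting H2-Aa and H2-Ab1 were at 0.03 and 0.24.

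More SB225002 cells were in the dividing range, in which Mki67, Top2a, Birc5, Cdk1, Rrm2 and Tyms together held at least 0.05% of UMIs. The share was 26% of C1q-positive cells in P10-sham_vehicle (95% interval 24.1 to 27.9), 19.9% in P10-MI_vehicle (18.3 to 21.5) and 30.1% in P10-MI_SB225002 (28.5 to 31.7). Genes of DNA replication and mitosis had positive medians in the sums. Their lists share genes with the definition of the range, Tyms and Mki67 among them, so they are no separate support for its share. Of 20 DNA replication genes 5 were higher and 0 lower (median 0.37), led by the thymidylate synthase gene Tyms (43.8, 33.3 and 60.6 CPM, 0.86). Of 28 mitosis genes 9 were higher and 0 lower (median 0.33), led by Cdc20 (0.87) and the cyclin gene Ccnb1 (0.80), while Mki67 was at 243, 197 and 202 CPM (0.04). With the SB225002 cells weighted to the vehicle makeup of ranges, the median of the mitosis genes was -0.03 and that of the histone genes -0.42. Without dividing cells the mitosis median was 0.58, and with a C1q share of 1% or more 0.96. Within the ranges it was -0.18 in dividing, 0.62 in resident and 0.40 in the remaining cells. Of 24 histone genes 4 were lower and 0 higher (median -0.08).

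The resident range showed the opposite. These were cells outside the dividing range with Lyve1, Folr2, Timd4 and Cd163 together at 0.05% of UMIs or more, and they made up 35.3% of the C1q-positive cells in sham (33.3 to 37.4), 33.9% in vehicle (32.1 to 35.8) and 19.5% in SB225002 (18.2 to 20.9). With each cell thinned to 1000 UMIs, the vehicle and SB225002 shares were 30.0% and 19.7%, and those of the dividing range 19.9% and 29.4%. The ranges are cuts in a continuous score: 3.34% of vehicle and 4.75% of SB225002 cells lay between 0.04% and 0.06% for the dividing genes, and 8.16% and 8.59% for the resident genes. An MHC class II range held 1.19% of the vehicle and 0.859% of the SB225002 cells (30 and 28 cells), and cells in none of these ranges 45.0% and 49.5%.

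**Figure D4:**
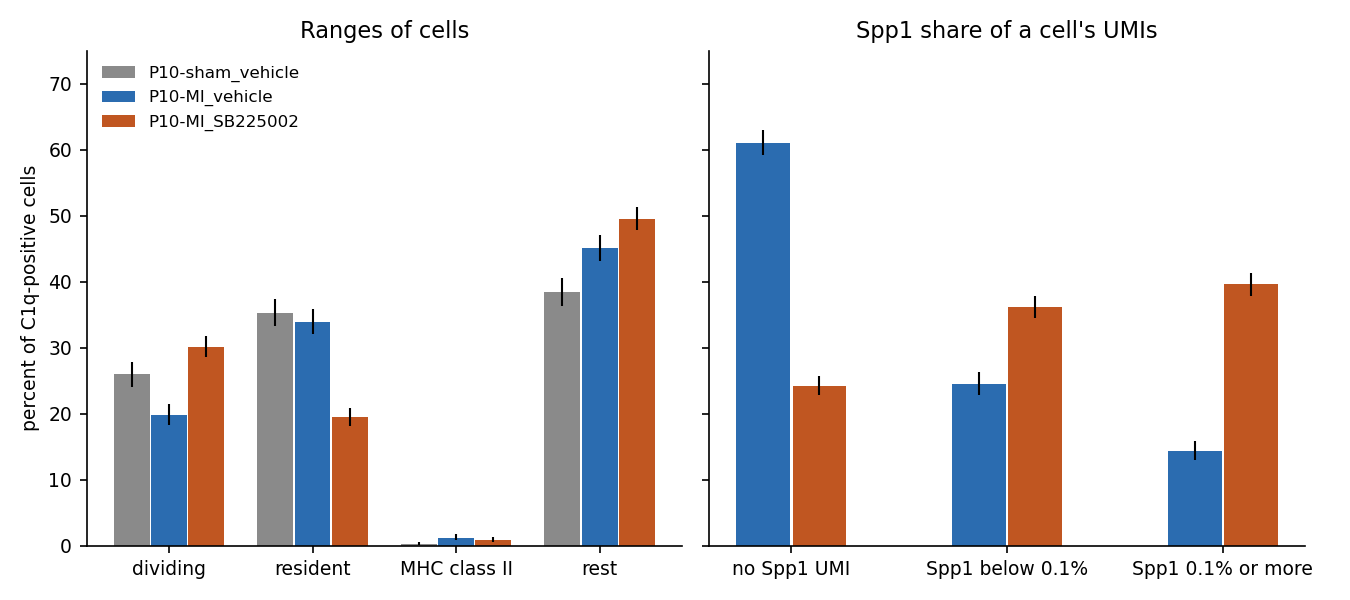
Share of C1q-positive cells (y axis, percent) in each range of cells, left, and in each class of the Spp1 share of a cell's UMIs, right; bars are single libraries and lines exact 95% binomial intervals. The dividing range is larger and the resident range smaller with SB225002 than with vehicle, and cells with no Spp1 UMI fall from 61.1% to 24.3%.

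Within the dividing, the resident and the remaining cells the named genes kept their direction, and the 12 lowest genes were all past -0.5 in each of these groups. The named genes were picked as extremes over the same cells, so their direction within parts of them was largely set in advance. Past -0.5 were 327 of the 6640 genes compared in dividing, 568 in resident and 356 in the remaining cells. Past 0.5 were 295, 456 and 326. F13a1 was at -0.82 in dividing, -0.94 in resident and -0.98 in the remaining cells, and Cd163, which the resident range used, at -0.77, -0.89 and -1.09. Of the 12 highest genes, 11 were past 0.5 in dividing cells, with Tubb4b at 0.50 just short of it, and 12 in resident and in the remaining cells. Spp1 was at 2.03, 1.97 and 1.91, and Arg1 at 2.48, 2.40 and 1.56. In the MHC class II range, with 30 and 28 cells, the 12 lowest genes were past -0.5 too, while 8 of the 12 highest had a positive ratio and 7 were past 0.5. Of the 6640 genes compared, 1735 were past -0.5 and 1638 past 0.5 in this small range. The intervals of Cd163 (-7.54 to 1.18), Abca9 (-2.41 to 0.02) and Lifr (-2.01 to 0.24) crossed 0 there. Spp1 was level there, at 1192 and 1153 CPM (-0.05, 95% interval -0.32 to 0.22), and Fabp4 was at -2.83. The resident list as a whole had medians of -0.27 in dividing, -0.43 in resident and -0.60 in the remaining cells and was thus lower within each of them as well. With the SB225002 cells weighted to the vehicle makeup of ranges, its median over all cells was -0.41. The immediate-early list had medians of -0.44, -0.77 and -0.71 in the same order.

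**Figure D5:**
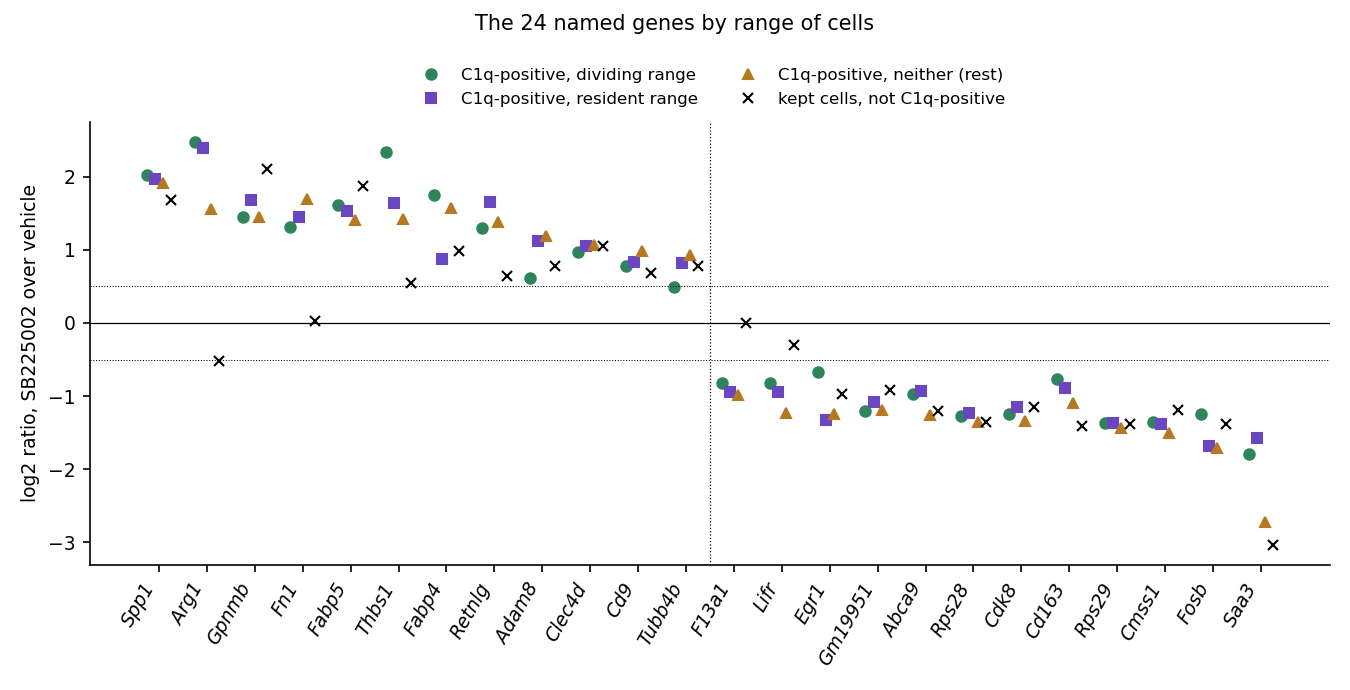
Log2 ratio of the 24 named genes (y axis, P10-MI_SB225002 over P10-MI_vehicle) in dividing, resident and remaining C1q-positive cells and in kept cells that were not C1q-positive (crosses); dotted lines mark -0.5 and 0.5. The coloured symbols keep 1 direction for each gene, while the crosses of Arg1, Fn1, F13a1 and Lifr depart from them, at -0.52, 0.03, 0.01 and -0.30.

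Spp1 UMIs were found in more cells with SB225002. Cells with no Spp1 UMI made up 61.1% of the vehicle and 24.3% of the SB225002 C1q-positive cells, those with Spp1 under 0.1% of UMIs 24.5% and 36.2%, and those with 0.1% or more 14.4% and 39.6%. Median depth rose over these classes, from 5562 to 8307 to 9179 UMIs in the vehicle and from 4117 to 6385 to 7061 UMIs in the SB225002 cells. With each cell thinned to 1000 UMIs, 19.2% of vehicle and 49.7% of SB225002 cells had a Spp1 UMI. The top 10% of cells by Spp1 level held 88.6% of its UMIs in the vehicle and 69.9% in the SB225002 cells. The B and T/NK cells, which should not express it, held a Spp1 UMI in 3.51% of 57 vehicle and 28.2% of 39 SB225002 cells thinned alike (median depth before thinning 3554 and 1952 UMIs), so Spp1 UMIs outside macrophages were also more common with SB225002, and the share of cells with a UMI cannot be read as the share expressing it. How far free RNA and depth set the Spp1 classes was not tested.

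Other genes can be read against the same background. Fn1 was found in 13.5% and 35.1% of thinned C1q-positive cells and in 1.75% and 15.4% of the lymphocytes, and Fabp5 in 11% and 23.7% against 1.75% and 12.8%. Arg1 was in 4.76% and 16.7%, Gpnmb in 3.62% and 10.2%, and Thbs1 in 1.83% and 6.62% of the C1q-positive cells, and these 3 genes were in 0 of the lymphocytes, which at 57 and 39 cells allows shares of up to 5.26% and 7.69%. The limits are above the vehicle shares of all 3 genes and above the SB225002 share of Thbs1. The background of these genes thus cannot be bounded below those shares at this depth. Of the lower genes, F13a1 was in 68.3% and 47.9% of thinned cells, Maf in 66.5% and 43.9%, Fos in 48.6% and 31.1%, and Cd163 in 13.1% and 6.47%. Their lymphocyte shares were 8.77% and 7.69% for F13a1, 5.26% and 2.56% for Maf, 17.5% and 5.13% for Fos and 1.75% and 0% for Cd163. Without thinning Arg1 was in 12.3% and 32.1% of the C1q-positive cells and F13a1 in 89.1% and 78.8%.

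Among cells of like Spp1 level, the lower genes stayed lower, and only part of the higher genes came closer together. The 12 lowest genes were past -0.5 in each of the 3 Spp1 classes. The named genes were picked as extremes over the same cells, so keeping their direction here was largely set in advance. F13a1 was at -0.81 in cells with no Spp1 UMI, -0.78 in the class under 0.1% and -0.95 in the class of 0.1% or more. Leaving out Spp1, which defined the classes, 9 of the other 11 highest genes were past 0.5 in cells with no Spp1 UMI, 5 in the middle class and 10 in the top class. Gpnmb was at 0.98, 0.09 and 0.44, with levels in the top class of 331 CPM in vehicle and 449 CPM in SB225002 cells, so most of its difference in the sums lay between the classes. Arg1 was higher even in cells with no Spp1 UMI, at 54.7 CPM in vehicle and 361 CPM in SB225002 cells (2.72), and at 1.04 and 0.84 in the other classes. Thbs1 was at 1.89, 0.59 and 0.85, Fabp4 at 1.65, 1.69 and 1.27, and Retnlg at 0.69, 1.55 and 4.54.

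The kept cells that were not C1q-positive, 941 with vehicle and 1483 with SB225002, were compared in the same way. They hold monocytes, neutrophils, fibroblasts and other cells, and share the libraries with the C1q-positive cells, so no test of the difference was made. Of the 7066 genes compared there, 626 (8.86%) were higher and 488 (6.91%) lower, with a median log2 ratio of 0.06. Spp1, at 4115 and 13246 CPM, and Gpnmb, at 130.0 and 558 CPM, were higher there too (1.69 and 2.10). Fn1, at 1801 and 1836 CPM (0.03), and F13a1, at 431 and 433 CPM (0.01), were level in the other kept cells as a pool. In the C1q-positive cells they were at 1.58 and -1.12. Within the pool, Fn1 was at 0.85 in cells with neutrophil, 0.68 with fibroblast, 0.29 with endothelial and -0.30 with no such markers. F13a1 was at -0.33, -1.12, -0.55 and -0.10 in the same order. Arg1 was lower in the pool of other kept cells, at 495 and 345 CPM (-0.52). It was at 1.55 in those with neutrophil markers, -4.03 with fibroblast markers and -0.78 with no such markers.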

How the data were processed

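The 3 droplet libraries (BMKGENE DG1000) were analysed from UMI counts that the authors deposited per gene and barcode, with mm10 and Seurat 4.1.0 named in the submitters' processing notes. The aligner and annotation are not given in the sources used here. The members and gene lists were chosen with earlier results of these data known. Counts were summed over the C1q-positive cells of each library, scaled to CPM and compared as log2 ratios. There was no test, since each condition was 1 pooled library. Intervals are exact (Poisson, binomial, or conditional on the summed counts). Named genes were, of the genes reaching 100 CPM in an infarct library, the 12 with the highest and the 12 with the lowest log2 ratio, and members of the 29 lists. The C1q genes were left out of the 6640 genes compared. Python 3.11.15, numpy 2.4.6, scipy 1.17.1 and scanpy 1.11.5 were used, with TMM from edgeR 4.0.16 and size factors from DESeq2 1.42.0 (R 4.3.3) as alternative scalings. Transcript lengths came from GENCODE vM21 (6635 genes matched) and promoter windows from RefSeq GRCm38.p6. The ratio and interval code was tested on simulated data. Scrublet scored doublets, and no cell was removed on its score in the values reported. Values of some single genes are not reported here.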

Additional observations from a re-analysis of the deposited data

Results flagged for a closer look

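In 6 genes the C1q-positive cells and the other kept cells moved in opposite directions between P10-MI_vehicle and P10-MI_SB225002, each by a log2 ratio of at least 0.5. The difference was not tested, since each condition was 1 library, and no reason for it was examined. The other kept cells are a pool of cell types, whose makeup was not held equal here. Arg1, the arginase gene, was at 1.85 in C1q-positive cells and at -0.52 in the other kept cells (95% interval -0.59 to -0.45, 495 to 345 CPM). In those of the other kept cells with neutrophil markers Arg1 was at 1.55. Timp1, a metalloproteinase inhibitor gene, was at 0.98 and -0.84 (-0.96 to -0.73, 211 to 118 CPM). Tgm2, a transglutaminase gene, was at 0.67 and -0.80 (-0.93 to -0.67, 155 to 89.4 CPM). The scavenger receptor gene Marco was at 1.04 and -2.0 (-2.41 to -1.60, 30.2 to 7.58 CPM). The chemokine gene Cxcl10 was at 0.90 and -0.73 (-1.06 to -0.40, 24.8 to 14.9 CPM). Ccl5 went the other way, at -1.97 and 1.41 (1.09 to 1.73, 15.0 to 39.7 CPM).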

How the results depend on the processing

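No paired analysis was possible because each condition was 1 library. No list median or named gene changed direction where it was past its bound, and scaling moved the median log2 ratio of all genes from -0.03 to at most 0.06. The main counts of 304 higher and 345 lower genes depended on the settings: median-of-ratios scaling gave 541 and 222, each cell thinned to 1000 UMIs 530 and 532, no minimum level 2640 and 3784, at least 100 CPM 111 and 119, and a log2 ratio past 1 gave 27 and 50. Without cells with Spp1 at 0.1% or more, 396 genes were higher and 218 lower.

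With a mitochondrial share under 5% the median log2 ratio was 0.37 for lipid-associated and 0.50 for monocyte genes, and the shares were 68.0% C1q-positive, 21.8% dividing and 30.7% resident cells in the vehicle and 31.8% dividing cells in the SB225002 library. With a C1q share of 0.1% or more it was 0.47 for lipid-associated, 0.50 for monocyte and 0.16 for repair genes, and 77.3% of vehicle and 75.9% of SB225002 cells were C1q-positive, with 18.1% resident cells in the latter. With a C1q share of 1% or more it was 0.28 for lipid-associated, -0.44 for resident, 1.20 for monocyte, 0.13 for interferon-stimulated and 0.37 for NRF2 target genes. That bound left 29.9% and 33.3% of kept cells, of which 11.2% and 25% were dividing, 39.8% and 24.8% resident, and in the SB225002 library 0.570% MHC class II cells.

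TMM scaling gave 0.47 for lipid-associated and 0.61 for monocyte genes, and median-of-ratios scaling 0.49, 0.64 and, for immediate-early genes, -0.56. Thinning gave 0.58 for NRF2 target genes and a resident share of 30.0% in the vehicle. Without dividing cells the medians were 0.48 for lipid-associated, -0.68 for resident and 0.62 for monocyte genes, and with the vehicle makeup of ranges -0.41 for resident genes. Scrublet called 1 of 3454 vehicle and 0 of 4744 SB225002 cells and thus did not work as a caller. With the 207 and 285 highest scores removed instead, the monocyte median was 0.72.

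These alternatives were chosen after seeing the data. Without cells with Spp1 at 0.1% or more the medians were 0.25 for lipid-associated, -0.36 for resident, 0.50 for monocyte, 0.12 for repair and 0.35 for NRF2 target genes. With the median of each transcript length class subtracted they were -0.83 for immediate-early, 0.29 for lipid-associated and 0.65 for monocyte genes, and of the smaller lists -0.15 for cytokines, -0.13 for CC chemokines, -0.79 for CXCR2 ligands, 0.06 for acute-phase, 0.01 for MHC class II, -0.09 for Fc receptor, 0.15 for LXR target, 0.03 for respiratory chain, -0.11 for ribosomal protein and -0.37 for Y-linked genes. Without shared barcodes the 24 named genes, which were picked over all these cells, kept their direction. The acute-phase median was 0.46 and the MHC class II median 0.51. The cause of these shifts was not tested. With 1 library a side, depth limits the counting error alone, and the spread between mice is unknown.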
